A study of Mus musculus with 3 samples.

Results

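Of 5164 cells kept from 3 lung sorts meant to hold innate lymphoid cells, 81 passed a rule on 4 genes of the vessel lining and are described here. A kept cell was a barcode in which 500 or more genes were detected and no more than 10% of UMIs were mitochondrial (UMIs are unique molecular identifiers, each the count of 1 captured RNA molecule). It counted as an endothelial member when its UMIs of Cldn5, Cdh5, Ramp2 and Egfl7 summed to at least 4. The other 5083 kept cells are the set that members are compared with.

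Lungs of GFI1B-GFP reporter mice, in which GFP marks use of the gene for the blood cell repressor GFI1B, were perfused, digested and enriched on Percoll. Live lineage-negative cells positive for CD45, CD90.2 and IL-7R were then sorted and profiled with 10x Chromium 3' chemistry. Every library shares that reporter and that gate. The IL-18R+ pool mixes 2 sorts, IL-18R+ CD103+ GFP- and, as the other, IL-18R+ CD103- GFP+, and no barcode can be traced to one of them. A second library bears the label IL-18R- CD103- GFP-. A library of IL-18R- ST2+ cells completes the set (ST2, gene Il1rl1, is the IL-33 receptor). The sources used here do not state the age or number of the mice or which antibodies made up the lineage gate. Each group is 1 library, so no difference between libraries has a replicate check, and intervals are 95% counting error only.

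The endothelium is a single sheet of cells that lines blood and lymph vessels, sealed by VE-cadherin (Cdh5) and claudin-5 (Cldn5). In the lung, most of it forms the alveolar capillary bed, in which general capillary cells (Plvap, Gpihbp1, Aplnr) and aerocytes (Car4, Ednrb, Fibin), the thin cells across which gas is exchanged, are intermingled. Larger veins and arteries and the lymphatics, which use the factor PROX1, complete the tree. Endothelial cells do not carry the leukocyte antigen CD45 (Ptprc), which was part of the gate.

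The members made up 56 of 1659 kept cells in the pool, or 3.38% (Clopper-Pearson interval 2.56 to 4.36%). They were 16 of 1883 in the library bearing the label IL-18R- CD103- GFP- (0.85%, 0.486 to 1.38%) and 9 of 1622 in the IL-18R- ST2+ library (0.555%, 0.254 to 1.05%). The pool's interval lies above those of the other libraries, whose intervals overlap each other. Members held 362787 UMIs in all (235403, 87127 and 40257 in the 3 libraries in that order) and the other kept cells 26310301. The median member had 3261 UMIs and 1616 genes, against 4777 UMIs and 1750 genes in the other kept cells. Ribosomal protein genes took a median 6.62% of a member's UMIs, against 27.0% in the other kept cells, and mitochondrial genes 1.77% against 3.44%. The IL-18R+ pool and the library bearing the label IL-18R- CD103- GFP- had 1 barcode in common, and no member's barcode recurred in another library. The IL-18R part of the label IL-18R- CD103- GFP- goes against the Il18r1 RNA of its library. Il18r1 stood at 593 UPM (UMIs per 1000000) in its other kept cells, close to the 677 UPM of the pool and far from the 16.2 UPM of the IL-18R- ST2+ library. The label refers to a sort on surface protein and GFP, which RNA of 1 gene does not measure. The library bearing the label IL-18R- CD103- GFP- is therefore named by its label throughout.

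The rule separated the cells cleanly in most cases. Of the 5164 kept cells, 5031 had no UMI of the 4 rule genes, 41 had 1, 8 had 2 and 3 had 3. Members had a median sum of 31, and 73 of the 81 had 16 or more. Just outside the rule stood 3 pool cells with a sum of 3, all of it from Cldn5, that carried 6 or 7 genes of a list of 15 T cell and ILC genes. Just inside stood a pool member with a sum of 4 and 8 of 9 epithelium genes, and 2 members with a sum of 5 that held Cldn5 alone. Another member with a sum of 5, from the IL-18R- ST2+ library, held all 4 rule genes and 18 of 28 pan-endothelial genes.

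**Figure D1:**
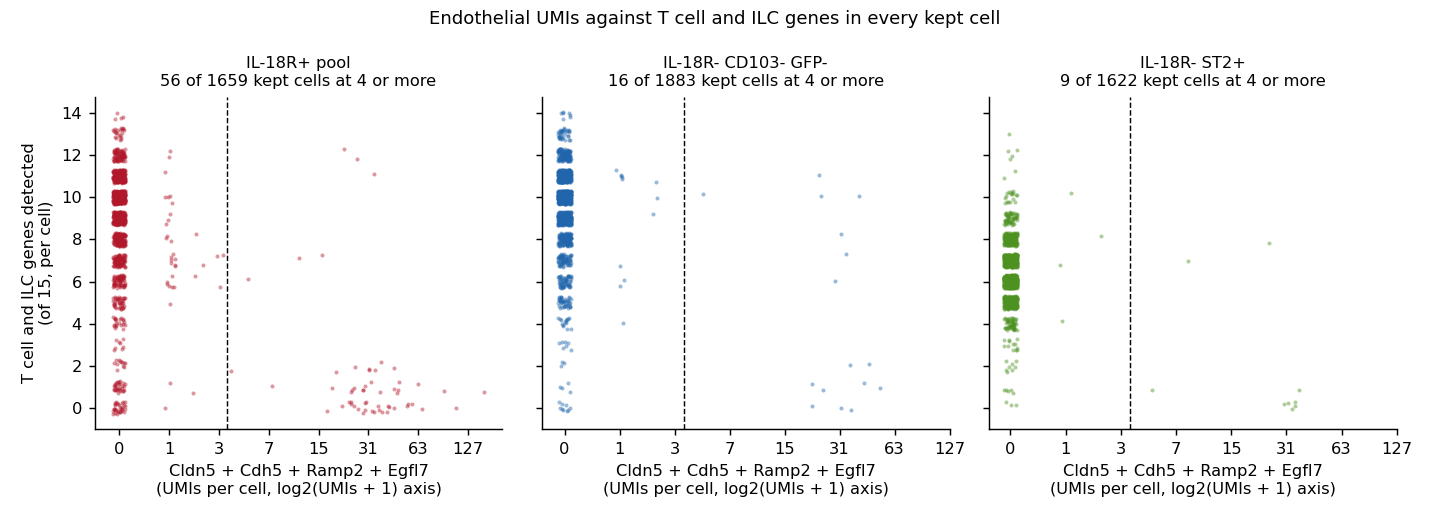
Each point is 1 kept cell, with its summed UMIs of the 4 rule genes on the horizontal axis (log2(UMIs + 1) spacing, jittered) and the number of 15 T cell and ILC genes detected on the vertical axis (jittered); the dashed line marks the rule. Most kept cells sit at a sum of 0 with several T cell and ILC genes, most members sit at the lower right with 2 or fewer, and 15 members sit at the upper right with 6 or more.

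The 81 members were not all of a kind, and were divided after their values had been seen. In 15 members at least 6 of the T cell and ILC genes were detected, in 66 at most 2, and in none 3 to 5. A group of 65 members had fewer than 6 T cell and ILC genes and fewer than 3 epithelium genes. These 65, called the core members here, held 11 to 27 of the 28 pan-endothelial genes (median 22). They comprised 3 members with at least 7 of 10 aerocyte genes, 1 member with at least 7 of 9 lymphatic genes and the remaining 61. Each of the 61 held 3 to 8 of the 9 general capillary genes, and they are called capillary members here, although some also held several venous, arterial or mural genes. By library the core members numbered 49 in the pool, 9 in the library bearing the label IL-18R- CD103- GFP-, and 7 in the IL-18R- ST2+ library.

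The 4 rule genes and the markers Tmem100 and Hpgd were found in nearly every member. On GRCm38 (GENCODE M21), Cldn5 lies on chromosome 16 at 18776847 to 18778262, Cdh5 on chromosome 8 at 104101625 to 104144511, and Ramp2 on chromosome 11 at 101246028 to 101259546, all on the plus strand. Egfl7 lies on chromosome 2 at 26580014 to 26593120, Tmem100 on chromosome 11 at 90030348 to 90036508 and Hpgd on chromosome 8 at 56294585 to 56321043, also on the plus strand. The following sequences are the 250 bases before the RefSeq start (GRCm38.p6) of genes that the endothelial members held together, shown because factors of the ETS family, such as ERG and FLI1, drive many endothelial genes through GGAA cores. Capitals mark the letters AGGAAG, or CTTCCT where the motif is on the opposite strand. They cover chr16:18776597-18776846 (plus strand), chr8:56294302-56294551 (plus strand), chr2:26583615-26583864 (plus strand), which is one of several Egfl7 starts, and chr5:147726012-147726261 (minus strand).
Cldn5: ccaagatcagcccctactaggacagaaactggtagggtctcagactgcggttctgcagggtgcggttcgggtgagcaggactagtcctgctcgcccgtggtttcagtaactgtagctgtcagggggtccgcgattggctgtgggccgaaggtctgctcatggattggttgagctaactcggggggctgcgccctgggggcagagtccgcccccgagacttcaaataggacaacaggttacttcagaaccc
Hpgd: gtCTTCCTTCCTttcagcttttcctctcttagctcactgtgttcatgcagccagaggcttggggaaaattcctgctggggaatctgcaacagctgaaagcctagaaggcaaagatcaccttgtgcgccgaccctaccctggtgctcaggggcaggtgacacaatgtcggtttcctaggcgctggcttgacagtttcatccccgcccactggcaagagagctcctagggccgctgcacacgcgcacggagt
Egfl7: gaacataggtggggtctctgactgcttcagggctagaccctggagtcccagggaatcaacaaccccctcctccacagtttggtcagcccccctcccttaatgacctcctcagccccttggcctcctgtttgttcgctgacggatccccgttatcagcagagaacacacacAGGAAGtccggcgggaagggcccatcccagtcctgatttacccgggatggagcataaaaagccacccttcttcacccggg
Flt1: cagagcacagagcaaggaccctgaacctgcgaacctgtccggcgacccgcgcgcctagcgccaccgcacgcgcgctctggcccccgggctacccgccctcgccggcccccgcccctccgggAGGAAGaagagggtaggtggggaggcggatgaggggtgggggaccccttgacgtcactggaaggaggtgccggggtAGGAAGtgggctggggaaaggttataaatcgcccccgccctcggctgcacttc
Of the 28 pan-endothelial genes 15 had a promoter in the RefSeq table, with 20 starts among them, and 11 of those 20 windows (55%) held the motif on either strand. It was found in 7 of 14 windows (50%) of the T cell and ILC genes and in 29.5% of all 32851 windows of that length. The Cldn5 window held none and the Flt1 window 2. A match of letters is a description of the window and not a site of binding.

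Cldn5, which seals tight junctions, had between 0 and 60 UMIs per member in the pool (median 9), 5 to 25 in the library bearing the label IL-18R- CD103- GFP- (median 11) and 1 to 20 among IL-18R- ST2+ members (median 7). In the other kept cells no cell exceeded 3 UMIs, and 22 of 5083 had any. Over all members Cldn5 stood at 2641 UPM, against 1.22 UPM in the other kept cells. Cdh5, the adherens junction cadherin, had 598 UMIs in members and 1 UMI in other kept cells. Its medians per member were 7, 6.5 and 7 in the 3 libraries, and its levels 1648 against 0.0380 UPM. Ramp2, the partner of Calcrl in the adrenomedullin receptor, was found in 76 members and in 9 other kept cells, at 2004 against 0.380 UPM. Egfl7, a secreted factor of the vessel wall, was found in 76 members and in 22 other kept cells, at 1400 against 0.874 UPM. These 4 values chose the members, so they say how the rule worked and carry no test.

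The markers outside the rule went with them. Tmem100, a BMP target of lung endothelium, was detected in 72 of 81 members (88.9%) and in 9 of 5083 other kept cells (0.177%). Hpgd, which breaks down prostaglandins, was detected in 76 members (93.8%) and in 14 other kept cells (0.275%). After thinning every cell to 1000 UMIs, Hpgd was still found in 86.1% of 79 members and in 0.0787% of 5081 other kept cells. The defining genes of the endothelial label were thus present, although cells chosen on 4 endothelial genes would tend to carry others that go with them.

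**Figure D2:**
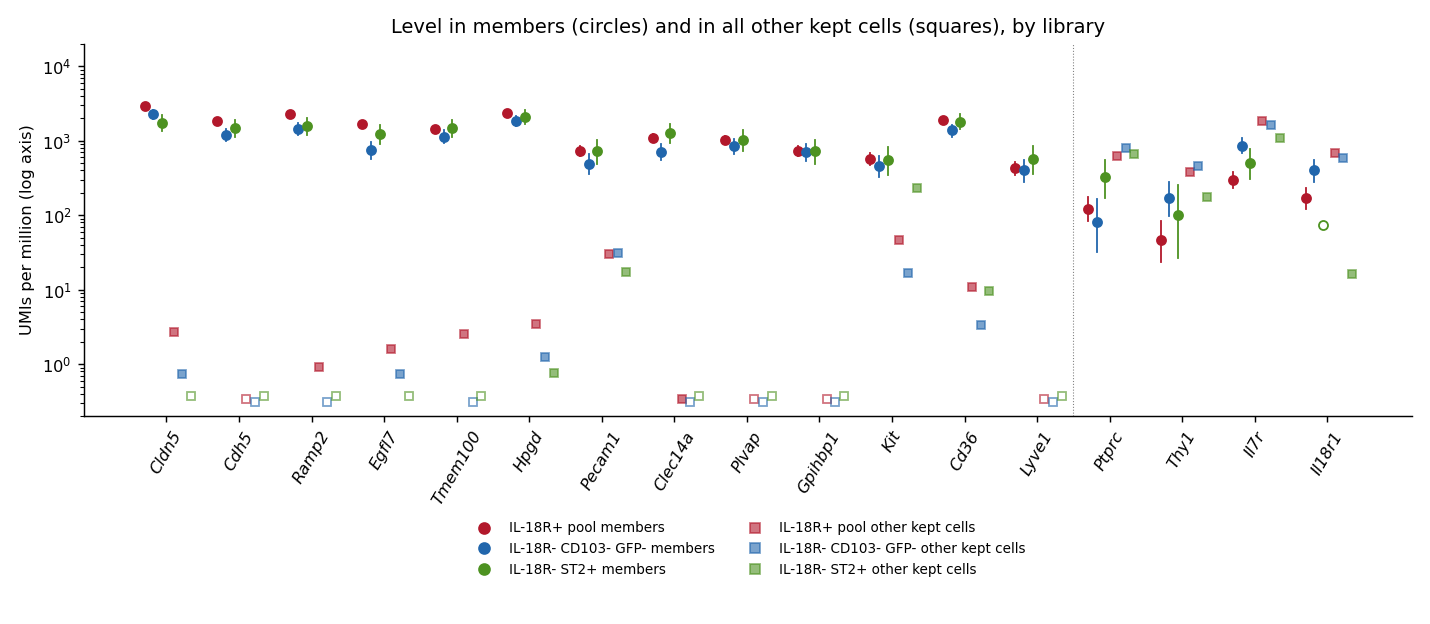
UMIs per 1000000 (UPM, log axis) of 13 endothelial genes and, right of the dotted line, 4 genes of the sort gate, in members (circles, with 95% counting intervals) and in all other kept cells (squares) of each library; open symbols are sums under 3 UMIs drawn at that floor. Members of all 3 libraries lie above the other kept cells of their library for the endothelial genes, by least for Kit of the IL-18R- ST2+ library, while most gate genes lie lower in members, Il18r1 of the IL-18R- ST2+ library being under the floor in members.

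Over all genes, 4095 reached 50 UPM in members or in the other kept cells. By a rule of size (a ratio of at least 2, with each sum raised to a floor of 3 UMIs), 1129 of them were higher in members (27.6% of those tested) and 558 lower (13.6%). The median log2 ratio of all tested genes was 0.26. Scaling by TMM, which moved the middle of the genes by 0.48 on the log2 scale, turned the split to 832 higher and 920 lower, so that 47.5% of called genes were higher in place of 66.9%. Because members were chosen on RNA of the same cells, none of these counts is a test, and they are read only beside the shares of all genes given here.

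All 27 pan-endothelial genes that reached the level were higher in members, with a median log2 ratio of 10.65, and all 27 were also higher under TMM. The 27 include the 4 rule genes, whose calls were set by how members were chosen and which enter the median. The exception among the 28 was the ETS factor Erg, which was too low to be tested (16 UMIs in 12 members). The receptor tyrosine kinase Tie1 and the sialomucin Emcn had 86 and 81 UMIs in members and none in other kept cells. At the floor of 3 UMIs they were 2079-fold and 1958-fold higher. Tek, the angiopoietin receptor and a relative of Tie1, had 119 UMIs in 54 members and 2 UMIs in other kept cells. Clec14a, a C-type lectin of vessel sprouts, had 370 UMIs in 75 members and 3 in other kept cells. The adhesion molecule Pecam1 was less exclusive: 246 UMIs in 70 members stood against 703 UMIs in 598 other kept cells, a ratio of 25.4 (21.9 to 29.4). S1pr1, the receptor for sphingosine-1-phosphate, was also shared, at 551 UPM in members and 90.8 UPM in other kept cells, a ratio of 6.07 (5.23 to 7.02).

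The 15 genes of largest ratio among those of at least 200 UPM were Cdh5, Tspan7, Clec14a, Plvap, Lyz1, Aqp1, Ptprb, Gpihbp1, Sema3c, Ramp2, Esam, Fmo1, Cyyr1, Cyp4b1 and Ecscr. Cdh5 and Ramp2 among them are rule genes. The tetraspanin Tspan7 had 451 UMIs in 75 members and 3 UMIs in other kept cells. The water channel Aqp1 had 285 UMIs in 69 members and none in other kept cells, at least 6890-fold higher. Ptprb, the phosphatase VE-PTP that acts on Tek and Cdh5, had 459 UMIs in 72 members and 5 in other kept cells. Fmo1, a flavin monooxygenase, had 182 UMIs in 66 members, and Cyyr1 had 239 UMIs in 72. Lyz1 alone among the 15 was not shared by members: its 286 UMIs lay in 1 cell, described with the epithelium genes.

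Receptors and their pathways were described from lists of genes. Of the VEGF and angiopoietin list 7 of 7 tested genes were higher in members. The VEGF receptor Kdr stood at 441 against 0.152 UPM and Flt1, which binds VEGF without strong signalling, at 546 against 2.36 UPM. The ligand Vegfa was at 361 UPM in members and 29.3 UPM in other kept cells. Of the BMP and TGF-beta list 8 of 11 were higher, 1 was lower and 2 were neither. The type I receptor Acvrl1 had 308 UMIs in 75 members and 24 UMIs in other kept cells, Bmpr2 stood at 979 against 19.6 UPM, and the ligand Bmp6 at 212 against 0.0380 UPM. Among their targets Id1 had 187 UMIs in 56 members and 90 UMIs in other kept cells, and Id3 stood at 827 against 11.3 UPM, while Id2, which innate lymphoid cells need, was lower in members at 229 against 478 UPM. In the pool library alone Id2 did not reach the fold (log2 ratio -0.83).

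Of the Notch list 5 of 6 genes were higher and Rbpj lower. The ligand Dll4 had 26 UMIs in 23 members and none in other kept cells, and Notch4 had 22 UMIs in 18 members and 18 UMIs in 18 other kept cells. Hes1 was just past the fold (ratio 2.02, 1.71 to 2.37) and was no longer called under TMM (log2 ratio 0.54). Rbpj was not called in the pool library alone (log2 ratio -0.93). Of the adrenomedullin receptor list, Calcrl and the rule gene Ramp2 were higher in members, and Ramp1 and Ramp3 lower. Calcrl stood at 1720 against 20.9 UPM, Ramp1 at 240 against 570 UPM and Ramp3 at 121 against 266 UPM. Members thus had Ramp2 in 76 cells, Ramp1 in 16 and Ramp3 in 14, whereas 4089 other kept cells had Ramp1.

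Of the transcription factors 13 of 15 tested were higher in members and Fli1 and Ets1 neither. Sox17, Sox7 and Sox18, the SOXF factors of endothelium, had 59, 73 and 46 UMIs in members and none in other kept cells. Foxf1, a factor of lung mesoderm and capillaries, had 192 UMIs in 60 members and 8 UMIs in other kept cells. Gata2 had 85 UMIs in 44 members and 2 UMIs in other kept cells. Epas1, the oxygen-sensing factor HIF-2alpha, stood at 1417 against 38.7 UPM, and the flow-induced Klf2 at 1293 against 200.1 UPM. All 10 tested genes of junctions and adhesion and all 6 of caveolae and water transport were higher in members. The junction list includes the rule genes Cldn5 and Cdh5. Cav1, the coat protein of caveolae, stood at 877 against 0.304 UPM and its partner Cavin2 at 1202 against 0.418 UPM. In the coagulation list 3 of 3 tested genes were higher, among them thrombomodulin (Thbd), at 722 against 9.46 UPM in 71 members.

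**Figure D3:**
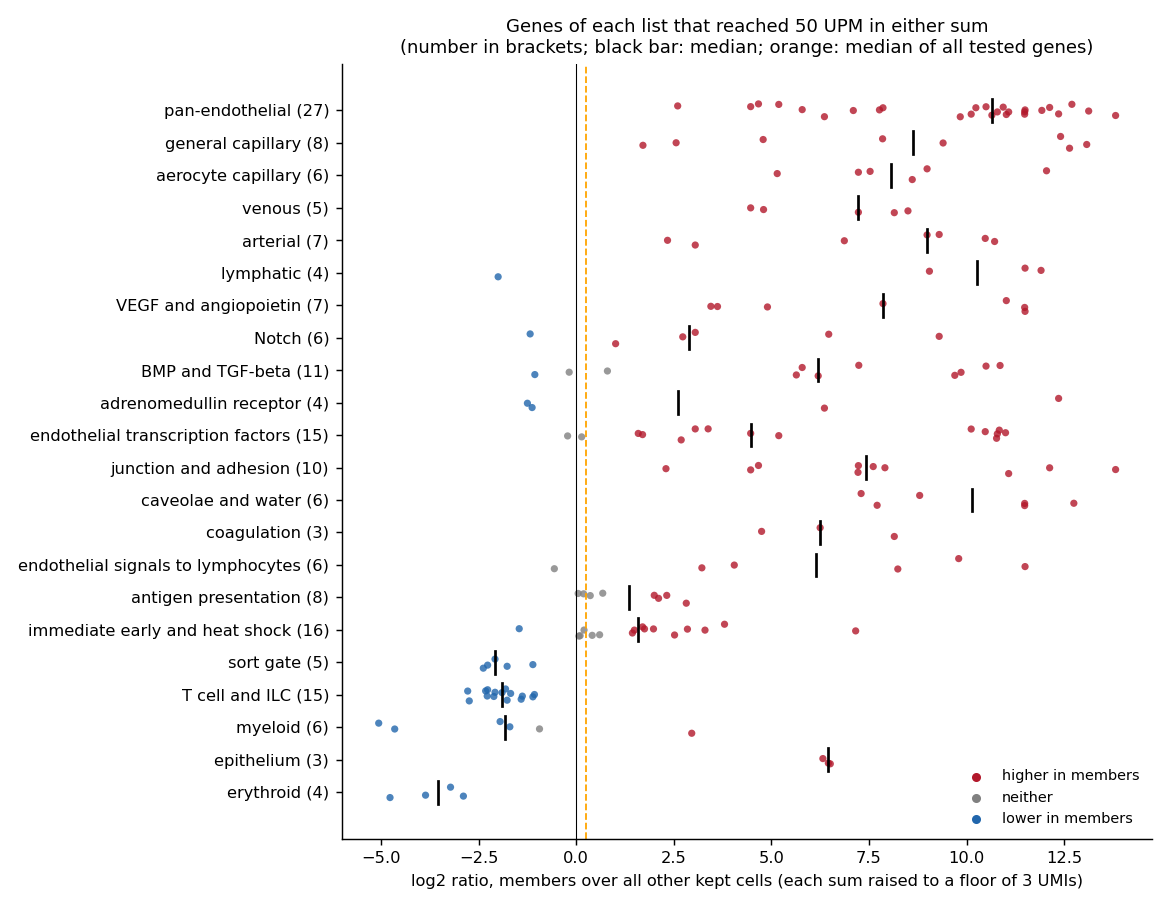
Log2 ratio of members over all other kept cells for each tested gene of 22 lists, coloured by call, with the median of each list as a black bar and that of all tested genes (0.26) as a dashed line. The endothelial lists lie to the right (27 of 27 pan-endothelial genes higher, the 4 rule genes among them). The sort gate, T cell and ILC and erythroid lists lie to the left.

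Most members were of the general capillary kind. At least 2 of 9 general capillary genes were detected in 77 of 81 members (95.1%, 87.8 to 98.6%) and in 178 other kept cells (3.50%). The 77 were the 61 capillary members, 14 of the 15 members with at least 6 T cell and ILC genes, 1 aerocyte member and the member with epithelium genes, and 2 of the 14 held no gene of the list but Kit and Cd93. Thinned to 1000 UMIs, the shares were 84.8% of 79 members and 0.374% of other kept cells. All 8 tested genes of the list were higher in members, and Fabp4 had no UMI in any. Plvap, the diaphragm protein of fenestrae and caveolae, had 359 UMIs in 70 members and none in 5083 other kept cells. Gpihbp1, which anchors lipoprotein lipase on capillaries, had 264 UMIs in 66 members and 1 UMI in other kept cells. The fatty acid transporter Cd36 was found in 75 members at 1781 UPM, against 7.72 UPM, and Sema3c in 59 at 830 UPM, against 0.152 UPM. The apelin receptor Aplnr had 28 UMIs in 20 members and none in other kept cells. Lpl was at 88.2 against 26.9 UPM, but it did not reach the fold within the pool library (log2 ratio 0.38).

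Kit, the stem cell factor receptor, is both a lymphoid and a capillary gene, and its contrast depended on the library. It was found in 64 members (79.0%) and in 1108 other kept cells (21.8%), at 543 against 92.4 UPM, a ratio of 5.88 (5.06 to 6.80). Members stood at 573.5, 459 and 547 UPM in the pool, the library bearing the label IL-18R- CD103- GFP- and that of IL-18R- ST2+ cells. The other kept cells stood at 46.9, 16.8 and 234 UPM in the same order. Members' levels spanned a narrower range across libraries than those of the other kept cells. With other cells weighted to the members' libraries, the log2 ratio of Kit was 3.17.

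Among the 61 capillary members alone, Cd93 was found in all 61 (median 5 UMIs, range 1 to 21), Cd36 in 60, Plvap in 56, Gpihbp1 in 54, Kit in 51 and Sema3c in 51. Plvap stood at 1616 UPM (1409 to 1844) in the 46 of the pool, 1993 UPM (1474 to 2634) in the 8 of the library bearing the label IL-18R- CD103- GFP- and 1527 UPM (1058 to 2134) in the 7 of the IL-18R- ST2+ library. The intervals overlap. For Gpihbp1 the values were 1182, 1301 and 1078 UPM, again with overlapping intervals, and for Kit 896, 1057 and 898 UPM. Sema3c was at 2291 UPM (1706 to 3012) in the IL-18R- ST2+ library, and its interval lies just above those of the pool (1454 UPM, 1258 to 1671) and of the remaining library (1179 UPM, 790 to 1694).

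**Figure D4:**
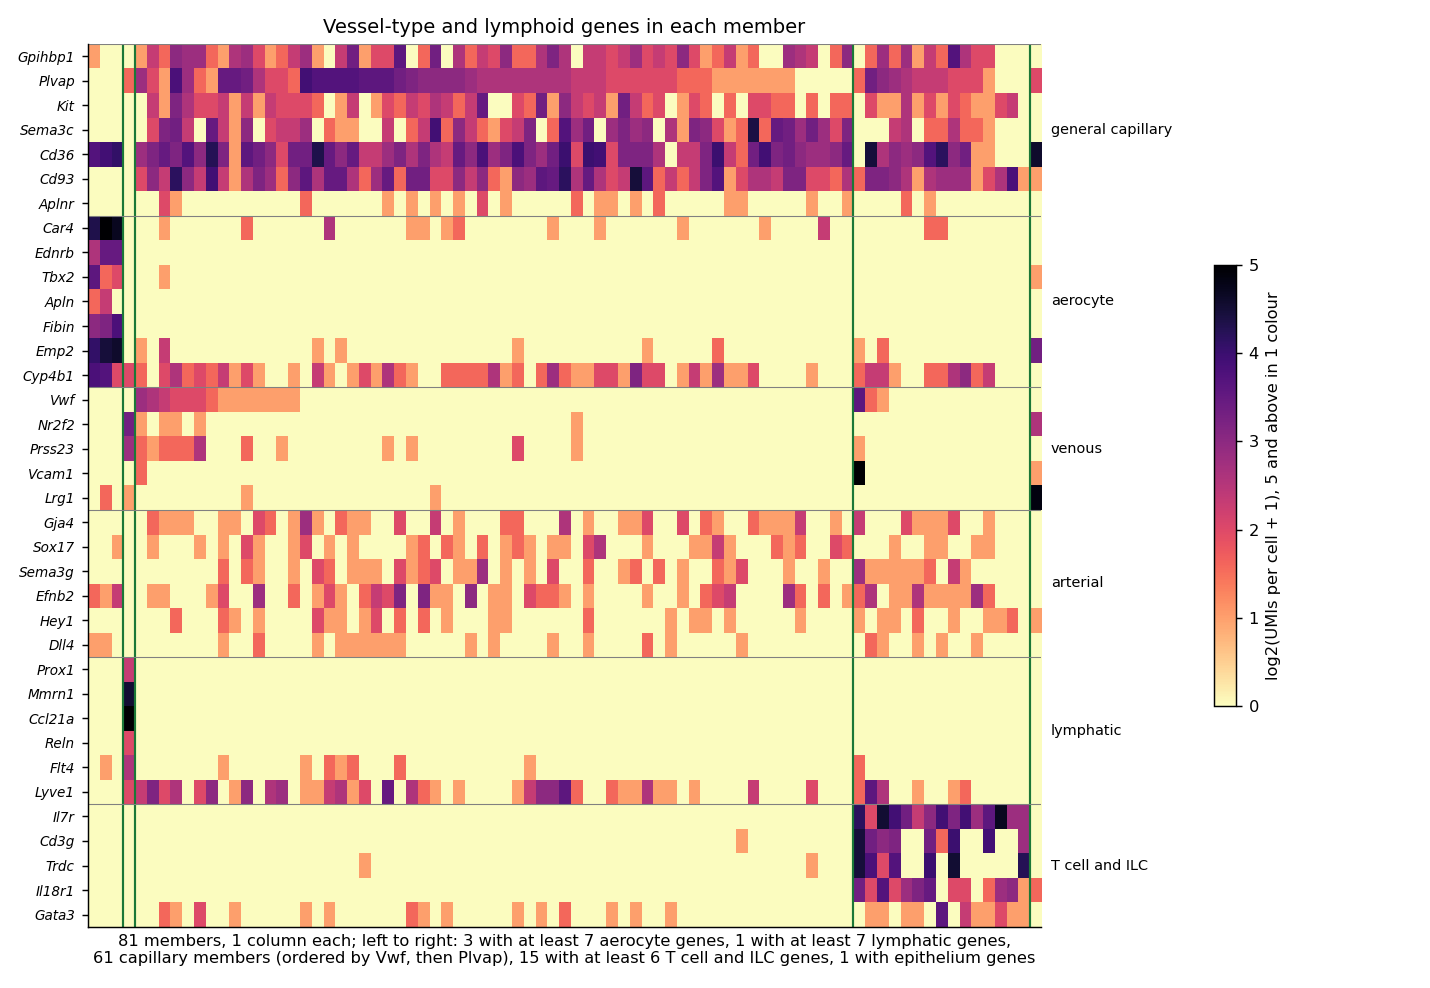
UMIs per cell, as log2(UMIs + 1), of vessel-type and lymphoid genes (rows) in the 81 members (columns), which are grouped by green lines. The 3 aerocyte members at the left hold Car4, Ednrb and Fibin and no Plvap, and the lymphatic member holds Ccl21a and Mmrn1. Most of the 61 capillary members hold Plvap, Cd36 and Cd93. Il7r is seen only in the 15 members with at least 6 T cell and ILC genes. Car4, Ednrb, Fibin, Ccl21a, Mmrn1 and Il7r are on the lists that set these groups.

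Aerocytes were few. At least 2 of the 10 aerocyte genes were found in 31 members (38.3%) and at least 3 in 7. Cyp4b1 of that list was found in 59 members, among them 45 of the 61 capillary members. Holding 2 genes of the list therefore does not set aerocytes apart. Of the members 3, all from the pool, had 8, 10 and 9 of them, whereas no capillary member had over 5. The grouping itself used this list, so contrasts in Car4, Ednrb, Fibin, Emp2 and Apln between these 3 and capillary members follow in part from it. These 3 cells had 5352, 6269 and 5791 UMIs, and rule sums of 91, 150 and 108, above the 66 that was the highest of any capillary member. Car4, the carbonic anhydrase that marks aerocytes, had 19, 38 and 25 UMIs in them, at 4709 UPM against 115 UPM over the 61 capillary members, 12 of which had any. Ednrb, the endothelin B receptor, had 5, 10 and 10 UMIs in them and none in capillary members. Fibin had 7, 8 and 13, and again none in capillary members. Emp2, a membrane protein, had 16, 21 and 23 UMIs, and Apln, the apelin ligand, had 2, 4 and 0. The VEGF receptor Kdr, which the grouping did not use, stood at 3331 UPM in the 3 cells, against 421 UPM in capillary members, a ratio of 7.92 (5.53 to 11.3). Cd34 was at 1608 against 142 UPM, and Igfbp7 at 6892 against 164 UPM, with 34, 50 and 36 UMIs in the 3 cells. In the other direction Plvap, Kit, Sema3c and Cd93 had no UMI in any of the 3, and Gpihbp1 had 1. Ptprb and Tek were also at 0, against 2120 and 508 UPM in capillary members. Cldn5 was at 8328 against 3688 UPM. Cells of 1 library are not replicates, so these values describe 3 cells.

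The venous list was thinner. At least 2 of its 12 genes were found in 12 members (14.8%, 7.90 to 24.5%), and after thinning in 5.06% of 79, while 54 members had none. Selp and Ackr1, markers of venules, had no UMI in any member. Vwf, the von Willebrand factor of larger vessels, had 47 UMIs in 17 members. Of these UMIs 34 were in the pool, 13 in the library bearing the label IL-18R- CD103- GFP-, and 0 in the IL-18R- ST2+ library. A count of 0 allows up to 91.6 UPM in the members of that last library. Among the 61 capillary members 14 held Vwf with 1 to 6 UMIs. Of these 14, 8 also held the protease Prss23, against 4 of the 47 without Vwf, and 4 held the vein factor Nr2f2, against 1 of 47. All 14 also held Plvap and Gpihbp1, against 42 and 40 of the 47. They thus carried Vwf beside capillary genes, although in some of them Vwf was the only venous gene, at 1 or 2 UMIs. One of the 14, a pool cell with 1709 UMIs, held 6 of the 12 venous genes. It had 6 UMIs of Vwf, 2 of Prss23 and 2 of Vcam1. The higher call of Vcam1, an adhesion molecule for leukocytes, rested on 1 cell: 51 of its 54 UMIs were in a member of the library bearing the label IL-18R- CD103- GFP- that had 11 Vwf UMIs, 11 of the T cell and ILC genes and 9 of the 12 arterial genes among 15577 UMIs. Lrg1 had 28 of its 33 UMIs in the member with epithelium genes.

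Arterial genes were spread unevenly over the members: 68 members held 1 to 5 of the 12 genes, 7 held none and 6 held 6 or more. At least 2 of them were found in 64 members (79.0%), and after thinning in 36.7% of 79 members and 0.0787% of other kept cells. Connexin 37 (Gja4) had 77 UMIs in 40 members and 11 UMIs in other kept cells, and Sema3g had 70 UMIs in 38 members and none in other kept cells. The ephrin Efnb2 stood at 328 against 2.81 UPM. Of the members with at least 7 arterial genes, 3 were capillary members and 1 was among those with at least 6 T cell and ILC genes. Connexin 40 (Gja5) was found in 3 members and the kinase Bmx in 3, together in 2 members, which are described here because of these values, and Dkk2 had no UMI. One of the 2 was a pool capillary member of 5181 UMIs with 8 arterial genes, with 3 UMIs of Gja5, 2 of Bmx, 8 of Efnb2 and 3 of Sema3g, beside 11 of Gpihbp1 and 9 of Plvap. The other, from the library bearing the label IL-18R- CD103- GFP-, was the Vcam1-rich member with 11 T cell and ILC genes. It held 9 arterial genes, with 1 UMI of Gja5, 1 of Bmx, 22 of Mgp, 6 of Sema3g and 4 of Gja4, and none of Gpihbp1, Kit, Cd36, Tmem100 or Hpgd. In the 61 capillary members Sema3g was found in 4 of the 14 with Vwf, against 25 of the 47 without, and Efnb2 in 6 of 14, against 27 of 47. Mgp, a matrix protein, was called higher on 36 UMIs in 3 members, of which 22 were in 1 cell, and was not called in the pool library alone (log2 ratio 0.67).

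One member had the genes of lymphatic endothelium. It came from the library bearing the label IL-18R- CD103- GFP- and held 8 of the 9 lymphatic genes among 4128 UMIs. Ccl21a, the chemokine that draws lymphocytes and dendritic cells into lymph vessels, had 120 UMIs in it, all of the members' Ccl21a (2 features of the annotation share that symbol and were summed). It also held all 22 Mmrn1, all 4 Prox1 and all 3 Reln UMIs of the members, with 5 of Flt4 (VEGFR3), 9 of Nr2f2 and 3 of Lyve1. Pdpn had no UMI in any member. Of the blood capillary genes it held 2 UMIs of Plvap and none of Gpihbp1, Kit, Cd36, Cd93 or Sema3c. Tmem100 and Hpgd, detected in most members, were both at 0 in it, though its rule sum was 20, of which 15 were Cldn5. No second member had more than 3 genes of the list.

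Lyve1, often used as a lymphatic marker, was not restricted to that cell. It had 159 UMIs in 43 members (53.1%, 41.7 to 64.3%) and 1 UMI in 1 of 5083 other kept cells. Of the 61 capillary members 36 held it, with up to 11 UMIs, while the 3 aerocyte members had none. Its members' levels were 617 UPM in the pool's capillary members, 1098 UPM in those of the library bearing the label IL-18R- CD103- GFP- and 1033 UPM in those of the IL-18R- ST2+ library. The interval in the pool (492 to 764) overlaps both others (724 to 1597 and 655 to 1550). Of the 4 tested lymphatic genes 3 were higher in members (Mmrn1, Ccl21a and Lyve1) and Fgl2 was lower, at 102 against 409 UPM. Fgl2 is also made by lymphocytes and was found in 3339 other kept cells. The 37 Fgl2 UMIs of members lay only in the lymphatic member, with 2, and in members with at least 6 T cell and ILC genes.

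Some of the members' genes encode signals to lymphocytes. Of 6 tested genes of that list 5 were higher in members and Cxcl10 neither (under TMM Cxcl10 was lower). The chemokine Cxcl12 had 222 UMIs in 55 members and 18 UMIs in 5 other kept cells, at 612 against 0.684 UPM. Kitl, the ligand of KIT, had 100 UMIs in 41 members and 24 in 11 other kept cells, and all 3 aerocyte members held it with 28 UMIs among them. Tnfsf10 (TRAIL) had 117 UMIs in 58 members and 513 UMIs in 437 other kept cells. Il7, Il18, Il6, Ccl2 and Cxcl9 had no UMI in any member, and a count of 0 allows up to 10.2 UPM. Il33, the ligand of ST2, had 12 UMIs in 2 members, 11 of them in the member with epithelium genes and 1 in the lymphatic member, and none in the 61 capillary members.

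Class I and class II antigen presentation genes differed in pattern. B2m, H2-K1, H2-D1 and Tap1 were neither higher nor lower, with B2m at 2260 against 1985 UPM. The class II genes H2-Aa, H2-Ab1, H2-Eb1 and Cd74 were all higher, H2-Ab1 at 267 against 37.9 UPM and Cd74 at 419 against 105 UPM. H2-Ab1 was found in 26 of 61 capillary members and in none of the 3 aerocyte members or the lymphatic one. Cd74 was found in 19 members, and of its 152 UMIs 56 were in the member with epithelium genes, 82 in capillary members and 14 in the members with at least 6 T cell and ILC genes.

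Of 13 immediate early genes, which tissue digestion can induce, 7 were higher in members, 1 lower and 5 neither. All 3 heat shock genes of the same list (Hspa1a, Hspa1b and Dnajb1) were higher, and under TMM 9 of the 16 genes were. Ier3 stood at 2588 against 18.1 UPM in 74 members, Egr1 at 3002 against 304 UPM and Jun at 4256 against 592 UPM. Jun was detected in all 81 members and in 3075 other kept cells. Nr4a1 was lower at 386 against 1059 UPM, but was not called in the pool library alone (log2 ratio -0.99). In the core members the log2 ratio of Jun was 3.34, and within the pool library 2.79, against 2.85 over all members. Whether digestion has a part in these levels was not tested.

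The genes of the gate were low in members. Ptprc, Thy1 and Il7r were all without a UMI in 63 of 81 members (77.8%, 67.2 to 86.3%) and in 28 of 5083 other kept cells (0.551%). Ptprc, the CD45 gene, was found in 12 members and in 4671 other kept cells, at 135 against 701 UPM, 5.19-fold lower in members (3.92 to 7.02). Il7r stood at 458 against 1555 UPM, and its 166 UMIs in members lay only in the 15 members with at least 6 T cell and ILC genes. Those 15 also held 48 of the 49 Ptprc UMIs and 28 of the 30 Thy1 UMIs of the members. Il7r and Thy1 are on the list that defined the 15, so their place there follows in part from the split. Ptprc is not on that list. Itgae (CD103) had 4 UMIs in 2 members and was too low to test, and Gfi1b had no UMI in any kept cell. Of 15 T cell and ILC genes all 15 were lower in members. With other cells weighted to the members' libraries, 12 of the 15 were lower, and Gata3, Il1rl1 and Il2rg were not called. The genes of lowest ratio were Ccl5, Ccl1, S100a9, Hbb-bs, Csf2, S100a8, Cd69, Tnfsf11, Cd3d and Ptprc. The chemokine Ccl5 had 25010 UMIs in 696 other kept cells and none in members, at least 115-fold lower in members. The library bearing the label IL-18R- CD103- GFP- held 22271 of these UMIs. In the pool's other kept cells Ccl5 stood at 248.5 UPM. Ccl1, Hbb-bs and Csf2 had 8262, 5888 and 5516 UMIs in the other kept cells of the IL-18R- ST2+ library. In those of the pool they stood at 0.114, 3.99 and 13.7 UPM. The floor in pool members is 12.7 UPM, so no such contrast could be seen there. S100a9 and S100a8 (43 and 48 other kept cells) and the globin Hbb-bs (85 other kept cells) also had no UMI in members.

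The 15 members with at least 6 T cell and ILC genes comprised 6 in the pool, 7 in the library bearing the label IL-18R- CD103- GFP-, and 2 in the IL-18R- ST2+ library. Their median was 8405 UMIs, against 2886 in the 56 members with 0 or 1 of those genes, and 21.3% of their UMIs were ribosomal, against 6.09% in the core members. Among them, 12 held 18 to 24 of the 28 pan-endothelial genes and 3 held at most 3. Their lymphoid genes differed by library: all 20 Il1rl1 UMIs of members were in the 2 from the IL-18R- ST2+ library. They held 104 of the 106 Trdc UMIs of members, and none of the 106 was from that library. Il1rl1 and Trdc are both on the list that defined the 15. Whether such barcodes hold 2 cells was not tested, and the doublet caller Scrublet named none of them (it called 19 of 5164 cells, or 0.368%, too few to be relied on). In the 56 members with 0 or 1 of those genes, Cd3g, Trdc, Ptprc and Thy1 were found in 1 cell each (1.79%), while Gata3 was found in 9 and Il2rg in 10. All of these but Ptprc are on the T cell and ILC list, so the split itself kept them low in the 56.

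In 3 members Cldn5 was found without the other rule genes, with 12, 5 and 5 UMIs. They carried 6 to 10 T cell and ILC genes, with 25, 6 and 6 UMIs of Il7r, and the data go against the endothelial label in them. One pool member with 26926 UMIs held 3743 of the 3744 Sftpc UMIs of all members, the surfactant gene of alveolar type II cells. It also held 654 of Sftpa1, 677 of Lyz2, 286 of Lyz1, 6 of 8 fibroblast genes and 10 pan-endothelial genes. Its rule sum of 4 came from 3 UMIs of Cdh5 and 1 of Egfl7, and the data go against the endothelial label in it too. The higher calls of epithelium genes (3 of 3 tested), Lyz2 and Lyz1 rested on that cell alone. Without it and the 15 members above, Lyz2 was lower in members (log2 ratio -4.03), as was Sftpc (log2 ratio -3.14). In the other kept cells, however, Sftpc stood at 429 UPM in the IL-18R- ST2+ library and at 0.68 UPM in the pool. The pool value lies under the floor of 12.7 UPM in pool members, so a lower level could not be seen there. Of the other marker lists, B cell, mural, mesothelium and platelet genes reached no tested level over all members. One capillary member of the pool, with 9755 UMIs, nevertheless held 4 of 8 mural and 3 of 8 fibroblast genes, with 5 UMIs each of Pdgfrb and Trpc6, beside 26 pan-endothelial genes. Both tested fibroblast genes (Pdgfra and Inmt) had over 90% of their UMIs in 1 member.

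Between libraries, the genes of most extreme ratio were often carried by 1 cell. Pool members over those of the library bearing the label IL-18R- CD103- GFP-, 400 of 3080 genes with at least 20 UMIs were higher (13.0%) and 216 lower (7.01%). Sftpc, Lyz2, Sftpa1, Lyz1 and Cxcl15 had the largest ratios, with 233 to 3744 UMIs, all but 1 of them in the cell with epithelium genes. Ccl21a, Vcam1 and Mmrn1 had the lowest, with 0, 3 and 0 UMIs in pool members against 120, 51 and 22 UMIs in the other library, each from 1 cell there. Trdc (76.5 against 1010 UPM) and Ccr2 (42.5 against 356 UPM) followed. Of 27 pan-endothelial genes Egfl7, Cd34 and Mmrn2 were higher in the pool and 24 were neither. Of 6 aerocyte genes 5 were higher, and all 3 aerocyte members were in the pool. Among core members only, 106 of 1758 genes were higher (6.03%) and 81 lower (4.61%). Igfbp7 was then the gene of largest ratio, with 147 UMIs in pool core members against 2, of which 120 were in the 3 aerocyte members. Car4 followed with 97 against 4 UMIs, and 82 of the 97 were in the 3 aerocyte members. Of 26 pan-endothelial genes tested in core members, Icam2 and Cd34 were higher in the pool and Tek was lower. Of 6 aerocyte genes tested in core members, Car4 and Emp2 were higher in the pool and none was lower.

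Pool members over IL-18R- ST2+ members, 141 of 2620 genes were higher (5.38%) and 159 lower (6.07%), a split that TMM, with a shift of -0.29, turned to 327 higher and 62 lower. The largest ratios were again those of Sftpc, Lyz2, Sftpa1, Lyz1 and Cxcl15. None of the 27 tested pan-endothelial genes and none of 7 general capillary genes passed the fold in either direction, with medians of 0.04 in both lists. Il1rl1 had no UMI in pool members and 20 in IL-18R- ST2+ members, 2 of which held it. Hmbox1, Atxn7, Nrip1 and Bhlhe40 were the other genes of lowest ratio, with 51.0 against 248, 46.7 against 224, 144 against 646 and 89.2 against 397 UPM in pool against IL-18R- ST2+ members. In the latter Hmbox1 and Atxn7 had 10 and 9 UMIs in 6 and 5 cells. Nrip1 had 26 UMIs in 3 cells and Bhlhe40 16 UMIs in 2, with 65.4% and 62.5% in 1 cell. These 2 genes stood at 739 and 783 UPM in that library's other kept cells. None of the named genes was among the 5 of lowest ratio in core members. In core members Car4 stood at 97 UMIs in the pool against 2, and Igfbp7 at 147 against 1, most of them again in the 3 aerocyte members. The depth limits these comparisons: the floor of 3 UMIs is 74.5 UPM in the IL-18R- ST2+ members and 34.4 UPM in those of the library bearing the label IL-18R- CD103- GFP-, against 12.7 UPM in the pool.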

How the data were processed

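Single-cell RNA was measured in 3 libraries, 1 per group. The deposited files hold raw UMI counts per gene and barcode, made with Cell Ranger 6.0.1 on mm10 per the submitters' processing notes; how barcodes were called is not given in the sources used here. Of 32285 features, 40 sharing a symbol were merged by summing. The 5351 barcodes were filtered, and members chosen, as the report states. The members, gene lists and size rule were chosen with earlier results of these data known. The named genes are those of the lists with a UMI in members, plus the 15 of largest and 10 of lowest ratio among called genes of at least 200 UPM (between libraries, 5 in each direction), leaving out predicted and Rik genes.

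Counts were summed over cells and scaled to UPM. A gene was called at a ratio of at least 2, with sums raised to a floor of 3 UMIs and a level of at least 50 UPM in either sum (between libraries, at least 20 UMIs in both sums together). With 1 library per group there is no test and no p-value. Intervals (95%) are exact Poisson, Clopper-Pearson or conditional binomial and cover counting error only, as does the limit a count of 0 allows. Shares were also computed after thinning cells to 1000 UMIs. TMM factors came from edgeR 4.0.16 (R 4.3.3). Scrublet, run in scanpy 1.11.5, called 0.368% of cells and is treated as not having worked; no cell was removed as a doublet. Other steps used python 3.11.15, numpy 2.4.6, scipy 1.17.1, pandas 2.3.3 and matplotlib 3.10.9, and the calling step was tested on simulated data. The alternatives were other scalings, levels, rule sums, list thresholds and member subsets. The subset of core members was chosen after seeing the data.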

Additional observations from a re-analysis of the deposited data

Results flagged for a closer look

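Among the 187 barcodes that failed the filters on genes and mitochondrial UMIs, 1 had a rule-gene sum of at least 4, a signal in barcodes that none of the comparisons used. It came from the library bearing the label IL-18R- CD103- GFP-, with 611 UMIs, 409 genes and 9.17% mitochondrial UMIs. Its rule sum was 5, and it held 8 of the 28 pan-endothelial genes.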

How the results depend on the processing

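Of 95 alternative values of the main shares and counts, 58 stayed within their bounds. Members were 2.55% of the pool's kept cells without those carrying at least 2 T cell and ILC genes; in the library bearing the label IL-18R- CD103- GFP- the share was 0.374% without them and 0.480% with core members only. The share of members with general capillary genes was 100% at 1 gene and 84.8% after thinning. For aerocyte genes it was 83.95% at 1 gene, 8.64% at 3 genes and 13.9% after thinning, for venous genes 33.3% at 1 gene and 5.06% after thinning, and for arterial genes 91.4% at 1 gene, 58.0% at 3 genes and 36.7% after thinning. For lymphatic genes it was 66.7% at 1 gene, 2.47% at 3 genes and 6.33% after thinning, and for T cell and ILC genes 18.5% at 3 genes and 20.25% after thinning. Members over other kept cells, the count of higher genes was 2005 at a minimum of 20 UPM and 11142 with none. The count of lower genes was 920 under TMM, 896 under median of ratios (a shift of 0.45), 868 at 20 UPM, 958 with no minimum and 846 without the carriers. Pool members over those of the library bearing the label IL-18R- CD103- GFP-, 128 genes were higher and 84 lower at 40 UMIs, 90 and 84 without the carriers, and 106 and 81 in core members. Pool over IL-18R- ST2+ members, 327 were higher and 62 lower under TMM, 36 were lower at 40 UMIs, 69 were higher and 95 lower without the carriers, and 66 were higher in core members.

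Directions reversed in 3 cases beside those already given. The cycling list's median log2 ratio of 1.89 became -1.63 at 20 UPM, -0.18 with no minimum and -2.09 in the pool alone, where more of its genes were tested. The cell with epithelium genes is dropped at a rule sum of 6, without the carriers and in core members. In those settings the epithelium median of 6.46 became -3.80, -2.92 and -3.14. That median covered 3 tested genes over all members but Sftpc alone in these settings, so it is the value of Sftpc. The other kept cells held Sftpc mainly in the IL-18R- ST2+ library. Lyz2, at 2.96 over all members, became -4.69, -3.80 and -4.03. Depth limits what 9 and 16 members can show, and values between libraries have no replicate check. No paired analysis was possible because each group is 1 library and no test was run.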

Other observations

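Cldn5 was also found outside cells with the other endothelial genes. Of the kept cells, 24 held Cldn5 without Cdh5, Ramp2 or Egfl7, of which 17 were in the pool, 6 in the library bearing the label IL-18R- CD103- GFP- and 1 in the IL-18R- ST2+ library. At least 6 T cell and ILC genes were detected in 21 of the 24, Il7r in all 24, Il18r1 in 23 and Kit in 15, and none held more than 2 further pan-endothelial genes. Only 3 of them reached the sum of 4 that made a member.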
